A study of Homo sapiens with 58 samples.

Results

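The nuclear receptor genes PGR, NR3C1, NR3C2, VDR, RXRA, RARB and RARG were followed across 58 human cell lines. These were 7 of the 19798 genes measured, and all 7 were among the 14651 genes counted as detected. Each gene was read from the probe set that named it alone and had the highest mean level, and its other probe sets were used as a check. PGR, NR3C1 and NR3C2 encode the receptors for progesterone, glucocorticoids and mineralocorticoids. VDR, RXRA, RARB and RARG bind vitamin D or retinoids and are not receptors of steroid hormones in the strict sense, although they belong to the same superfamily.

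Nuclear receptors are transcription factors whose activity is switched by a small fat-soluble ligand. The receptors for progesterone, glucocorticoids and mineralocorticoids wait in a complex with heat shock chaperones and, with their ligand, bind palindromic sites as homodimers. The vitamin D receptor and the retinoic acid receptors sit on direct repeats as heterodimers with a retinoid X receptor, of which RXRA is the most widely expressed. In breast epithelium PGR is a known target of the estrogen receptor, and RARB is itself a target of retinoic acid.

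The lines were labelled as breast cancer, were untreated and grown in the conditions the vendor advises, and each was hybridised to 1 array, so there were no replicates. The labels define no groups, and every comparison below is between lines. MDAMB435S, M4A4, NM2C5 and MT3 are reported elsewhere not to come from breast tumours, MCF12A, MCF102A and HMT3522S1 are known as lines of non-malignant breast epithelium, and this list may not be complete. Because 14 lines fall into 6 sets of a common origin by textbook knowledge, each set was averaged for tests, which left 50 units.

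The breast epithelial label was checked with marker lists. At least 5 of 10 epithelial genes were above the array median in 47 lines. In HS739T, HS605T, HS362T and HS579MG (the 4 Hs lines), 2 to 3 of 10 epithelial genes were above it, and so were 10 of 10 fibroblast and matrix genes, with a mean level of 12.77 to 12.90 against 3.80 to 12.71 in the other 54 lines. Outside these 4 lines, HS578T had 5 of 10 epithelial and 10 of 10 fibroblast and matrix genes above the array median. HCC1395 had 1 and 9 of 10, MDAMB157 had 4 and 9, and FR2 had 4 and 8. NM2C5 and M4A4 had 7 of 7 melanocyte genes above the array median and MT3 had 8 of 8 intestinal genes. Of 9 blood cell genes at most 3 were above the array median in any line. PTPRC, CD3E, CD53, SPI1 and LCP2 were not counted as detected, though LCP2 was above it in 3 lines, with 9.97 in M4A4. Among the others, LAPTM5 was above it in 18 lines, HCLS1 in 5 and IKZF1 in 5. Array medians lay between 5.37 and 5.58. Values are log2 intensities, and levels of different genes were not set against each other, since probe sets differ in brightness.

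PGR was high in few lines and at background in most. Its level was 2.02 in VP229, 2.64 at the median and 11.55 in T47D, and 51 of the 58 lines lay at or below 5.58, the 95th percentile of 616 viral probe sets that served as background. The 7 lines above background were T47D at 11.55, ZR751 at 11.03, EFM192C at 10.08, MDAMB361 at 9.94, CAMA1 at 9.84, EVSAT at 8.55 and EFM192B at 6.36. T47D was thus at least 62.5-fold above background. Over the 50 units the SD was 2.36, larger than that of 94.6% of detected genes. The units formed 2 clusters, 41 with a mean of 2.61 and 9 with a mean of 7.63. The higher cluster also held MB157 with MDAMB157, ZR7530 and HS739T, all below background. Its EFM192 unit, at 6.33, averages EFM192B and EFM192C with EFM192A, which was below background at 2.55. A second PGR probe set gave r = 0.96 with the main one over 50 units but a rank correlation of 0.31, and it was above background in 5 lines.

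Levels of the estrogen receptor gene ESR1 were set beside PGR, since PGR is a textbook estrogen target. ESR1 was above the array median in 34 lines, of which 6 also had PGR above it. The line with PGR above the array median and ESR1 below it was EVSAT, with PGR at 8.55 and ESR1 at 4.58. The lowest ESR1 level among the 6 lines with both genes, 10.58 in EFM192B, was taken as a cut. Of the 11 lines with ESR1 at this cut or more, some had PGR at background. They were KPL1, at 12.45 against 2.74, MDAMB175VII, at 11.73 against 2.71, VP229, at 11.33 against 2.02, BT20, at 10.64 against 2.87, and ZR7530. ZR7530 had ESR1 at 11.86 and PGR at 4.29. Next below the cut were EFM192A, with ESR1 at 10.24 and PGR at 2.55, and HCC1937, at 10.01 and 2.44. In 23 lines neither gene was above the array median.

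**Figure D1:**
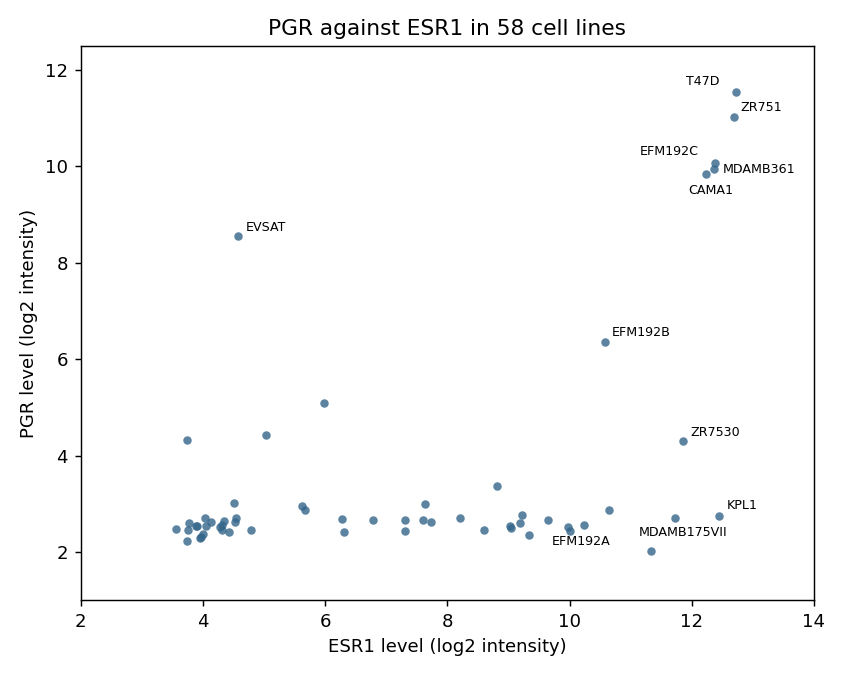
PGR level against ESR1 level, both in log2 intensity, with 1 point for each of the 58 lines and selected lines named. The lowest ESR1 level among the 6 lines with both genes is 10.58. KPL1, MDAMB175VII, VP229, BT20 and ZR7530 lie at low PGR and above that ESR1 level. EVSAT lies at high PGR and an ESR1 level of 4.58.

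NR3C1, the glucocorticoid receptor gene, showed the opposite distribution, with high levels in nearly every line and background levels in 3 lines. Its level was 3.33 in MT3, 10.12 at the median and 11.67 in HS605T, and 55 lines were above background. The highest levels were in HS605T, HS579MG at 11.65, HS362T at 11.56, HCC1187 at 11.47 and HS739T at 11.44. Below T47D at 7.52 there was a gap of 1.86 to SW527 at 5.65, followed by CAL51 at 4.36, DU4475 at 3.99 and MT3. That gap was the only one between neighbouring lines that exceeded 1.69, the limit for a difference between 2 lines of a common origin (95% normal limit from the SD within sets, 0.61). The units formed 2 clusters, 4 with a mean of 4.36 and 46 with a mean of 10.08. Another 4 NR3C1 probe sets followed the main one over units with r from 0.96 to 0.99, while a flat probe set with a median of 5.82 gave r = 0.08 and another, above background in 0 lines, gave r = 0.70.

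NR3C2, the mineralocorticoid receptor gene, varied without a break. It was 3.58 in HCC1143, 6.14 at the median and 9.64 in VP229, and 37 lines were above background. After VP229 came HCC1569 at 9.26, CAL51 at 8.92, HCC70 at 8.80, HS739T at 8.63 and MT3 at 8.52. CAL51 and MT3 were therefore high for NR3C2 and among the lowest 4 lines for NR3C1. No neighbours in the order differed by more than 4.85, the limit from the spread within sets, which was wide for this gene (SD 1.75 within sets and 1.51 over units).

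VDR, the vitamin D receptor gene, was above background in all 58 lines. Its level was 6.0 in CAL120, 10.31 at the median and 11.47 in MDAMB453, followed by MDAMB175VII at 11.44, UACC893 at 11.35 and T47D at 11.09. The low end held FR2 at 8.02, MDAMB157 at 7.65, SW527 at 7.34 and CAL120, 1.34 below SW527, which is within the limit of 2.53. The second VDR probe set was above background in 5 lines and followed the main one with r = 0.70.

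RXRA, the shared partner, was above background in all lines and varied least of the 7, with an SD of 0.91 over units against a median of 0.70 for detected genes. It was 11.48 at the median and 12.64 in BT20, and VP229 at 12.61 and HCC1187 at 12.42 came next. DU4475 stood alone at 6.82, 2.53 below M4A4 at 9.35, and no other gap exceeded the limit of 1.27. The second RXRA probe set gave r = 0.63 and the third r = 0.40 with the main one.

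RARG was above background in 56 lines, at 8.06 in the median and 9.53 in VP229. HS362T at 9.43, HS605T at 9.27 and HS579MG at 9.25 followed. COLO824 at 5.47 and DU4475 at 4.01 were the 2 lines below background, and the gap of 1.46 between them was the only one beyond the limit of 0.84. RARG had 1 probe set, so its level has no check on the array.

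RARB was near background in many lines and high in a minority, with 30 lines above background. It was 3.64 in SUM149PT, 5.61 at the median and 10.51 in HS578T. MB157 at 9.33, NM2C5 at 8.98, MFM223 at 8.70, MDAMB436 at 8.34, MDAMB435S at 8.06 and M4A4 at 8.03 followed HS578T. NM2C5, MDAMB435S and M4A4, which are reported to share an origin outside the breast, were thus all among the 7 highest lines for RARB, with 7, 5 and 7 of 7 melanocyte genes above the array median. Neighbours in the RARB order never differed by more than the limit of 2.32. The second RARB probe set was above background in 0 lines and gave r = -0.01, so it offered no check.

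RARB is the textbook case of a receptor gene with a retinoic acid response element in its own promoter, and the stretch is shown because it is the sequence by which retinoid receptors act on a member of the group. It lies at chr3:25428149-25428258 of GRCh38.p14 on the plus strand, in the promoter window given by RefSeq for 1 of the 4 RARB starts. Capitals mark the direct repeat, which begins 52 bases before that start.
RARB: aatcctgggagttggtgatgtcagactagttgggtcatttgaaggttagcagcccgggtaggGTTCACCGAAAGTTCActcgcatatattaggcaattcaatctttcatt
A pair of GTTCA with 6 bases between, which the capitals match, was searched on both strands of 35116 windows of 300 bases and occurred in 20, or 0.057%. Of 21 windows of 6 of the receptors, this was the only one that held it. A pair of GGTCA with 6 bases between occurred in 19 windows (0.0541%). With 4 bases between, as in vitamin D response elements, the GTTCA pair occurred in 10 windows (0.0285%) and the GGTCA pair in 19. The steroid palindrome, GNACA and TGTNC with 3 bases between, occurred in 137 (0.39%). None of these other motifs was in a receptor window. A match describes the letters only, and which RARB start was used in these lines was not measured.

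**Figure D2:**
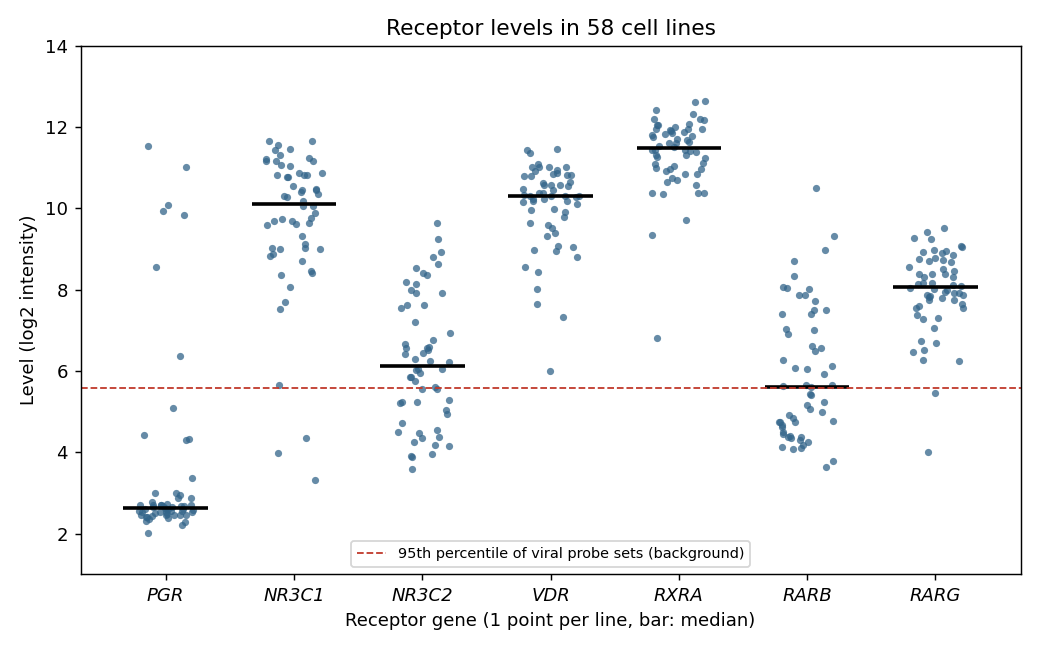
Level of each receptor in log2 intensity, with 1 point for each of 58 lines, a bar at the median and a dashed line at the background of 5.58. Most PGR points lie below the line, all VDR and RXRA points lie above it, NR3C1 has 4 points and RXRA 1 far below the rest, and 2 RARG points lie below the line.

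The lines of a common origin showed how far receptor levels can part within a lineage. EFM192A, EFM192B and EFM192C had PGR at 2.55, 6.36 and 10.08, so EFM192C exceeded EFM192A by 7.53 on the log2 scale, or at least 22.6-fold over background, a difference larger than that of 99.97% of detected genes between the same lines. Their NR3C2 levels were 5.74, 5.21 and 8.18, with EFM192C again the highest. VP229 and VP267 differed most in NR3C2, with 9.64 in VP229 and 4.26 in VP267, at least 16.6-fold and more than for 99.5% of genes. VDR ran the other way in that pair, with 8.55 in VP229 and 11.03 in VP267.

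Sets also parted for other receptors. MB157 and MDAMB157 had NR3C1 at 9.02 and 11.21, NR3C2 at 7.63 and 5.23 and RARB at 9.33 and 7.41. Their whole profiles correlated with r = 0.41 across genes, which are not independent replicates. The median r was 0.66 over the 10 pairs within sets, and MDAMB157 was closer to HS578T at r = 0.46. The highest r between lines of different units was 0.93, above the highest within sets, 0.92. The 50 units may therefore not all be independent. SKBR3 and AU565 were alike, with differences from 0.04 for PGR to 0.86 for RARB. RARG differed least within sets (SD 0.30) and PGR most (1.98). Each line was measured 1 time, so culture, passage and array differences are part of these values and cannot be told apart from differences in origin.

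**Figure D3:**
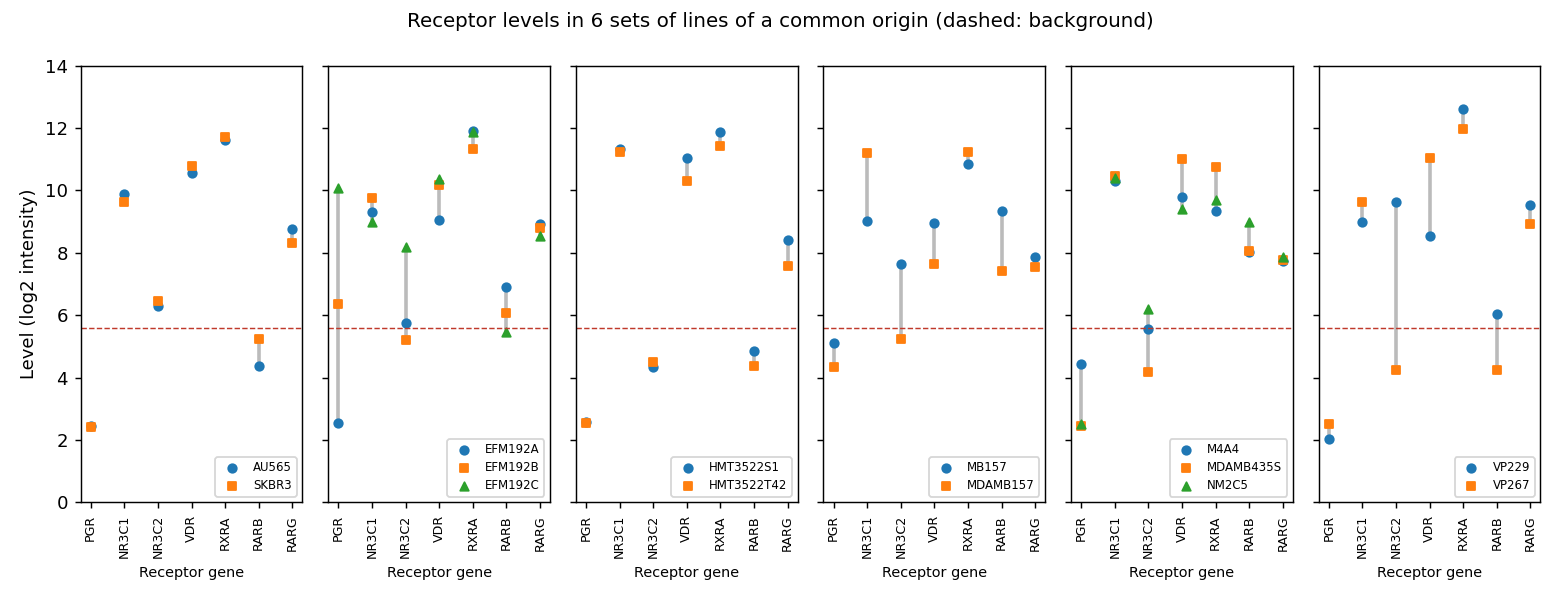
Levels of the 7 receptors in log2 intensity in 6 sets of lines of a common origin, with 1 marker per line, a grey bar over the range and a dashed line at background. PGR spans 2.55 to 10.08 in the EFM192 set and NR3C2 spans 4.26 to 9.64 in the VP229 and VP267 pair, while RARG stays within 0.80 in every set.

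Genes that went with each receptor were sought with limma over 14650 detected genes, with the receptor level as the term and its cluster as a factor for PGR and NR3C1. A slope is the change of a gene in log2 units per log2 unit of the receptor, and a gene was called at a Benjamini-Hochberg adjusted p under 0.05 within a fit, with no adjustment over the 7 fits. With PGR, 3 genes were called, 0.0205% of those tested. With NR3C1, 4098 (28%) were called, with NR3C2 4 (0.0273%), with VDR 52 (0.355%), with RXRA 563 (3.84%), with RARB 0 and with RARG 583 (3.98%). For RARB limma gave 805 genes at an unadjusted p under 0.05. Since these are lysates of whole cultures, fewer cells of a type and less RNA per cell cannot be told apart.

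Within the clusters of NR3C1, lines with more of it had more mesenchymal and less luminal and epithelial transcript. The higher cluster holds 46 of the 50 units, so the slopes rest mostly on it. Of 10 luminal genes tested, 0 were higher and 10 were lower with NR3C1, with a median slope of -1.41 against -0.02 over all genes, beside 16.1% of all genes called lower and 11.9% called higher. FOXA1, a pioneer factor of luminal cells, had a slope of -2.24 ± 0.31 (SE, limma adjusted p = 1.13e-06), and SPDEF, a luminal transcription factor, one of -1.80. ERBB3, a partner of ERBB2, fell by 1.80 and TFF3, a secreted mucosal peptide, by 1.63 per unit. Of 10 epithelial genes 9 were lower, with a median slope of -1.58, among them RAB25 at -2.32, CLDN4 at -1.69, EPCAM at -1.59 and GRHL2, a keeper of epithelial identity, at -1.21. ESRP2 was the member not called, at 0.03.

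Of 11 mesenchymal genes 10 rose with NR3C1, with a median slope of 2.04. CAV1, the coat protein of caveolae, had a slope of 2.72 ± 0.34 (SE, limma adjusted p = 1.7e-07). AXL, a receptor kinase, followed at 2.61, ZEB1, a repressor of epithelial genes, at 2.34 and CDH2, N-cadherin, at 2.19, and TWIST1 was not called at 0.90. All 10 fibroblast and matrix genes tested were called higher, with a median of 1.53, among them POSTN at 2.04, COL6A3 at 1.93, COL1A2 at 1.76 and PDGFRA at 1.76. The 4 Hs lines, which hold 4 of the 5 highest NR3C1 levels, had the highest mean of this list. HS578T, with a mean of 12.71 for this list, and HCC1395, MDAMB157 and FR2 stayed in the fit without the 4 Hs lines. In the fit without the 4 Hs lines 5 of 10 fibroblast and matrix genes, 10 of 11 mesenchymal, 9 of 10 epithelial and 9 of 10 luminal genes were called in the same directions, and 2586 genes in all, of which 2294 were also called with all lines. In the fit with no cluster factor 1425 genes were called, 968 of them shared, and 9 mesenchymal, 6 fibroblast and matrix, 5 luminal and 2 epithelial genes.

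Known glucocorticoid targets were counted against their receptor. Of 12 targets, 2 were called higher and 0 lower, near the 11.9% of all genes called higher, with a median slope of 0.36. SGK1, a kinase that regulates sodium transport, had a slope of 1.14 and CEBPD, a transcription factor, 0.66. FKBP5 at -0.13 and TSC22D3 at -0.34, commonly used as readouts of glucocorticoid action, were not called. Of the 12 target slopes 10 were positive, all but these 2. ERRFI1 was also called without the 4 Hs lines, at 0.36 (limma adjusted p = 0.0114), and with no cluster factor SGK1 at 0.48, KLF9 at 0.27 and DUSP1 at 0.27 were called and CEBPD was not. No ligand was added to the cultures, and the hormone content of the media was not measured.

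Genes of the other hormone axes were also counted against NR3C1, with which 11.9% of all genes tested were called higher and 16.1% lower. Of 9 mineralocorticoid and sodium genes 1 was higher, SGK1 again, and 3 were lower, with SCNN1A, a subunit of the epithelial sodium channel, at -1.66, HSD11B2, the enzyme that inactivates cortisol, at -0.80 and ATP1B1 at -0.19. Of 13 genes of steroid and vitamin D metabolism 3 were higher and 2 lower. HSD11B1, which regenerates cortisol, rose by 1.02 per unit and AKR1C3, a steroid reductase, by 1.39. With no cluster factor HSD11B1 was at 0.43 (limma adjusted p = 0.0625), AKR1C3 at 0.42 (0.229) and SCNN1A at -0.52 (0.129), none of them called, and without the 4 Hs lines HSD11B1 was at 0.56 (0.068). Of 8 vitamin D targets 3 were higher and 2 lower, with TRPV6, a calcium channel, at -1.32, CAMP, an antimicrobial peptide, at -0.91, IGFBP3 at 1.33 and CYP24A1, which degrades active vitamin D, at 0.65. None of the 8 vitamin D targets was called with no cluster factor.

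Of 9 retinoid targets tested 1 was called higher and 1 lower, beside 11.9% and 16.1% of all genes. They were TGM2, a transglutaminase, at 1.99 and CRABP2, which carries retinoic acid, at -0.89. Of 8 progestin targets 1 was higher and 4 were lower. EHF had a slope of -1.58, ELF5, a regulator of alveolar cells, one of -1.46 and STAT5A one of 0.48. Of 10 receptor chaperones 0 were higher and 3 lower, and the slopes were small, at -0.30 for FKBP4, -0.16 for STUB1 and -0.08 for PTGES3. Of 11 coregulators 0 were higher and 1, TBL1XR1, was lower at -0.08. Of 24 other nuclear receptor genes 1 was higher and 5 were lower, among them NR2F6 at -0.31, RARA at -0.41, ESRRG at -0.87 and THRB at -0.71. With no cluster factor TGM2 (0.69), EHF (-0.68), NR2F6 (-0.11) and ESRRG (-0.83) were still called, and CRABP2 (-0.08), ELF5 (-0.21), STAT5A (0.14), RARA (-0.07), THRB (0.09), TBL1XR1 and the 3 chaperones were not. Among the 7 receptors themselves, only PGR was called with NR3C1, at -0.78 ± 0.28 (SE, limma adjusted p = 0.0352). The slope of PGR on NR3C1 was -0.83 without the 4 Hs lines (adjusted p = 0.0684) and -0.12 with no cluster factor (adjusted p = 0.71), and NR3C1 was not called with PGR (adjusted p = 0.826).

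**Figure D4:**
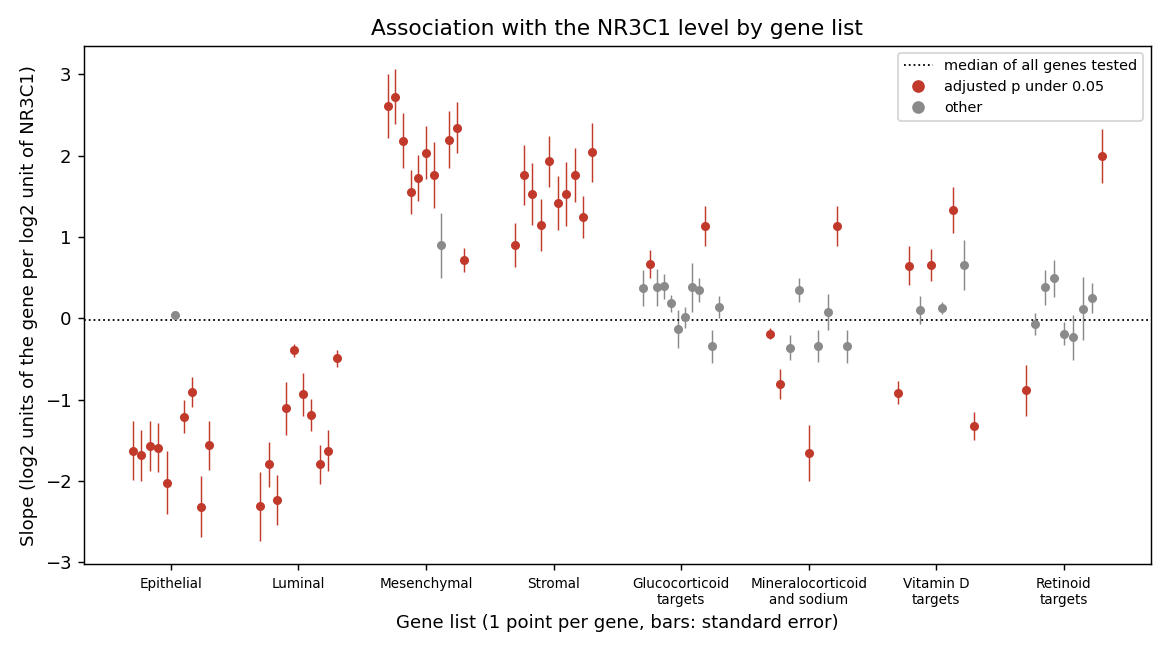
Slope of each gene on the NR3C1 level, in log2 units per log2 unit, for 8 gene lists, with bars for 1 standard error, called genes in red and a dotted line at the median of all genes tested. Luminal and epithelial genes lie below the line except ESRP2, mesenchymal and stromal genes lie above it, and glucocorticoid targets lie between -0.34 and 1.14.

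By a likeness rule that counts shared units, ZNF772, MAGEH1 and USP40 had 47 of 47 units in common with NR3C1, so these genes were also lowest in the 3 units where NR3C1 was below the array median, CAL51, DU4475 and MT3. ADAM12 and TUBB6 shared 46 of 47. With 47 of 50 units above the array median, only the 3 lowest units can separate genes by this rule, so a high overlap is easily reached. Ties were ordered by rank difference, and how many of all genes share as many units was not counted.

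Few genes went with PGR inside its clusters. The 3 called genes were all higher with PGR, namely BFSP2, a lens filament protein, SERPINA6, the corticosteroid-binding globulin of plasma, and STMND1. SERPINA6 had a slope of 0.66 ± 0.11 (SE, limma adjusted p = 0.00393). Without T47D, 0 genes were called. None of the 172 list genes tested was called with PGR, and 22 of them (12.8%) were at an unadjusted p under 0.05, against 8.77% of all genes. The genes most alike by shared units were SSTR2, a somatostatin receptor, GREB1, an estrogen target, DNAJC14, PDCD4 and CCDC117, each with 5 of the 6 units in which PGR was above the array median among its own 6 highest.

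NR3C2 had 4 called genes. SLC1A1, a glutamate transporter, rose by 0.94 ± 0.18 per unit (SE, limma adjusted p = 0.0322), ZNF43 by 0.71 and PPFIBP2 by 0.73. TRIM7, a ubiquitin ligase, fell by 0.53. The 3 higher genes are 0.0205% of all genes tested and the 1 lower gene is 0.00683%. Leaving out 1 unit gave counts from 0 to 8, and 0 without DU4475. None of the 172 list genes was called, including those of sodium transport, and 30 (17.4%) were at an unadjusted p under 0.05, against 10.3% of all genes. LRIG1 and VLDLR came next in likeness with Pearson r of 0.55 each over 50 units, and TRIM7 (-0.58), DRG2 (-0.50) and FSD1 (-0.50) were the most opposed.

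Of the 52 genes called with VDR, 20 (0.137% of all tested) were higher and 32 (0.218%) lower. SQOR, a mitochondrial sulfide oxidase, was the most alike with r = 0.64 over 50 units, followed by LRP11 (0.61), ZFP36 (0.60), which destabilises messenger RNA, EMP2 (0.58) and FHOD1 (0.57). TRBV6-5 (-0.69), ZNF385B (-0.67) and KLHL15 (-0.66) were the most opposed. No vitamin D target of 8 tested was called, CYP24A1 and TRPV6 included, and of all 172 list genes 0 were called and 24 (14%) were at an unadjusted p under 0.05 in limma, near the 12.8% of all genes. The count was 31 without UACC893, 148 without the 4 Hs lines and 0 with the second VDR probe set as the term.

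Of the pairs taken over all 50 units, RXRA and RARG had the highest Pearson r but not the highest rank correlation. Their r was 0.59 (permutation p = 0.00011, adjusted p = 0.00297 over 27 relations) and rho was 0.34 (adjusted p = 0.144). Without the 2 units farthest from the RXRA median, DU4475 and the MDAMB435 set, r was 0.36 (permutation p = 0.0117). Without DU4475 alone r was 0.35, with an adjusted p of 0.106, so the call rested on that line. VDR and RARG gave r = 0.48 (permutation p = 0.00122, adjusted p = 0.0165) and rho = 0.40 (adjusted p = 0.101), and r = 0.38 without CAL120 and SW527. VDR and RXRA gave r = 0.39 (adjusted p = 0.0982) and rho = 0.37.

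**Figure D5:**
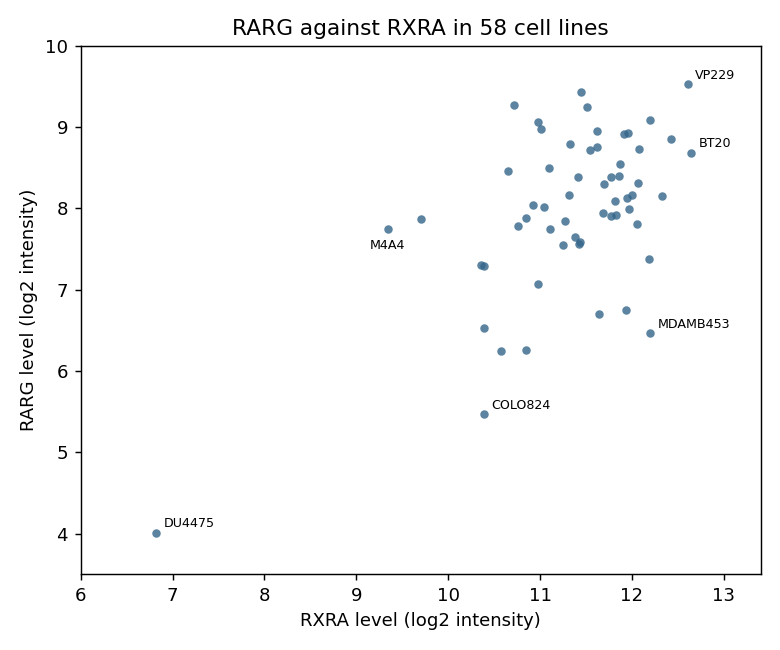
RARG level against RXRA level in log2 intensity, with 1 point for each of 58 lines and selected lines named. DU4475 lies apart at 6.82 for RXRA and 4.01 for RARG, and the other lines form a loose cloud.

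Within the 9 units of the higher PGR cluster, PGR and RXRA gave r = 0.87 (exact permutation p = 0.00217, adjusted p = 0.0195) and rho = 0.75 (adjusted p = 0.170). Of these units, MB157 with MDAMB157, ZR7530 and HS739T were below background for PGR, and the EFM192 unit includes EFM192A, also below it. The mean of all probe sets gave r = 0.72 (exact permutation p = 0.0367, adjusted p = 0.198), the second probe sets gave -0.11 over the 6 units of their higher cluster, and without the 4 Hs lines r was 0.82 (adjusted p = 0.0913), so the pair passed in none of these. No relation of the 27 passed by rank over all lines, and RARB was in none that passed. Without the 4 Hs lines RXRA and RARG passed both ways, with r = 0.67 (permutation p = 4e-05, adjusted p = 0.00108) and rho = 0.47 (adjusted p = 0.0351) over 46 units. In the limma fits over all genes RARG was called with RXRA at a slope of 0.68 ± 0.13 (SE, adjusted p = 0.000819), VDR with RARG at 0.48 (adjusted p = 0.0199) and NR3C1 with RARG at 0.82 (adjusted p = 0.0343). Without DU4475 the slope of RARG on RXRA was 0.49 (adjusted p = 0.113) and the slope of NR3C1 on RARG was 0.56 (adjusted p = 0.278), so neither was called, and the slope of VDR on RARG was 0.57 (adjusted p = 0.0463).

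With RXRA, 323 genes (2.2%) were called higher and 240 (1.64%) lower. Of the 172 list genes 7 were higher and 1 was lower. TSC22D3 and KLF9, both glucocorticoid targets, had slopes of 1.07 and 0.71. BCL6, a transcriptional repressor, had 0.87, THRB, a thyroid hormone receptor, 1.34, NRIP1, a corepressor of nuclear receptors, 0.57, CLDN4 1.65 and XBP1 0.46. ALDH1A2, which makes retinoic acid, had -0.89 and was above the array median in 3 lines, with its highest level, 11.23, in DU4475.

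DU4475 shaped this list. In the fit without DU4475, with detection taken anew, 809 genes were called. Of the 563 only 194 (34.5%) were among them, or 24% of the 809. With the detection filter of all 50 units kept, 813 of 14650 genes were called without DU4475, 574 of them higher and 239 lower. In the fit with 809 calls epithelial genes were higher in 7 of 10, with RAB25 at 3.02, GRHL2 at 1.70 and CLDN4 at 2.36. Luminal genes were higher in 4 of 10, with FOXA1 at 2.60, SPDEF at 1.82, GATA3 at 1.90 and XBP1 at 0.66, and mesenchymal genes lower in 3 of 11, with SPARC at -2.76, ZEB1 at -2.64 and ZEB2 at -0.92. The median slopes were 2.0, 1.30 and -1.97 against 0.01 over all genes. THRB (1.76), TSC22D3 (1.23) and NRIP1 (0.76) remained called, RARA (0.61), the retinoic acid receptor alpha gene, and NR1H3 (0.79), an oxysterol receptor gene, were added. Hormone target genes called there and not with all lines were SCNN1A (2.43) and SCNN1B (1.06), subunits of the sodium channel, EHF (2.15), CRABP2 (1.84) and TRPV6 (1.57). BCL6 kept a slope of 0.78 (limma adjusted p = 0.103) and KLF9 one of 0.49 (0.183) without being called, and ALDH1A2 fell below the detection filter and was not tested. DU4475 itself had 9 of 10 epithelial and 3 of 11 mesenchymal genes above the array median. PARP6, the gene most like RXRA at r = 0.72 over 50 units, had r = 0.37 without DU4475, and CMKLR1, the most opposed at -0.78, had -0.47.

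With RARG, 215 genes (1.47%) were called higher and 368 (2.51%) lower. Of the list genes KLF9 (0.58), TSC22D3 (0.68), BCL6 (0.82) and THRB (0.83) were higher, and ESRRG (-1.10) and ALDH1A2 (-0.56) were lower. Without DU4475, 122 genes were called, 100 of them shared. Of these 6 genes 5 were tested and 0 called, with slopes of 0.71 for BCL6 (limma adjusted p = 0.0685), 0.71 for THRB (0.168), 0.52 for TSC22D3 (0.265), 0.38 for KLF9 (0.197) and -0.78 for ESRRG (0.207), and ALDH1A2 fell below the detection filter. ITGB5, an integrin subunit, was the most alike, with r = 0.72 over 50 units and 0.58 without DU4475, followed by B4GALT1 (0.67), AHNAK (0.65), IL13RA1 (0.64) and SLC66A3 (0.60). DACH1, a repressor of transcription, was opposed at -0.64, THOP1 at -0.64 and LRRC75A at -0.68. ITGB5, DACH1 and THOP1 were still called without DU4475 (limma adjusted p = 0.0205 for each). Fibroblast and matrix genes had positive slopes in 10 of 10, with a median of 0.55 and 0 called, and in the fit without the 4 Hs lines in 3 of 10, with a median of -0.28.

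No gene was called with RARB, and the smallest adjusted p was 0.514. Of the 172 list genes 11 (6.4%) were at an unadjusted p under 0.05, near the 5.49% of all genes. STK32B, a kinase, was the most alike at r = 0.54 over 50 units, NCKAP5 (0.47), RRAGD, RERGL and DKKL1 (0.46 each) came next, and DUS2, which modifies transfer RNA, was the most opposed at -0.54. Of 9 retinoid targets tested 2 had a positive slope on RARB, with a median of -0.10.

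Seen by line, the receptors at the low end differed. PGR, NR3C2 and RARB were left out of this order, since all 6 of their lowest lines lay below background. Of the lines kept, CAL51, DU4475 and MT3 were also below background for NR3C1, and COLO824 and DU4475 for RARG. DU4475 was among the 6 lowest lines for NR3C1, RXRA and RARG and had 3 of the 7 receptors above the array median, fewer than any other line. CAL51 and SW527 were among the 6 lowest for NR3C1, VDR and RARG. CAL120 was among them for VDR and RARG. A low rank is not absence, as VDR and RXRA were above background in all lines and RARG in 56. VP229, among the 6 highest for NR3C2, RXRA and RARG, was among the 6 lowest for VDR. HS739T was among the 6 highest for NR3C1, NR3C2 and RARG. Across lines 4 receptors were above the array median in 13, 5 in 18, 6 in 24 and all 7 in 2 lines, CAMA1 and ZR751.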

How the data were processed

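Total RNA of 58 cell lines was amplified with a NuGEN protocol, labelled with biotin and hybridised to 1 custom array per line. The authors deposited 1 log2 intensity per probe set and array, summarised by RMA in Affymetrix Power Tools per the submitters' processing notes, with versions not given in the sources used here. Whether all arrays were normalized together is not stated. RMA forces arrays to a like distribution, so total RNA changes are not visible, and the number of arrays limits precision.

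Of 52377 probe sets 35184 named 1 gene and were used, and where a gene had several, the brightest on average stood for it. A gene was detected if above the array median in at least 3 of 50 units. Genes tied to each receptor were found with limma 3.58.1 in R 4.3.3 (lmFit, eBayes with trend and robust). Clusters were taken from a mixture of 2 components with mclust 6.1.1 where the BIC gain over 1 component exceeded 10, Ashman's D exceeded 2 and neither cluster had under 3 units. Pairs of receptors used 100000 permutations (exact under 10 units), within clusters of at least 6 units. Promoter windows came from RefSeq (GRCh38.p14) and matched 6 of the 7 genes. Scripts were tested on simulated data.

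Named were the receptors, called genes of 20 fixed lists (at most 4 per list and fit), and for each receptor the 5 genes most like it, with the 3 most opposed where it formed no clusters. Called genes were also named where 5 or fewer, chosen after their values were seen, as were the list genes that were not called or were called without DU4475. The receptors and lists were chosen with earlier results of these data known. Alternatives were the mean of probe sets, the second probe set, a repeated quantile normalization, a stricter filter or none, all lines as units, leaving out the MDAMB435 set and MT3 or the 4 Hs lines, array quality as a term, another eBayes setting and no cluster factor. Alternatives chosen after seeing the data were leaving out DU4475 or each unit, joining OCUBF with OCUBM and parting MB157 from MDAMB157. No single-gene probe set had the ID mark for cross-hybridisation, so leaving out such probe sets was not run.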

Additional observations from a re-analysis of the deposited data

How the results depend on the processing

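Counts of genes called moved by over 1.5 times as follows. For PGR (3) the count was 0 with the stricter filter, 14 with all 58 lines as units, 287 with no cluster factor and 6 with MB157 and MDAMB157 separate. For NR3C1 (4098) it was 2586 without the 4 Hs lines and 1425 with no cluster factor. For NR3C2 (4) it was 0 with the mean of probe sets, 0 with the second-highest probe set, 13 without the 4 Hs lines, 2 with array quality as a term and 0 without DU4475. For VDR (52) it was 32 with the stricter filter, 30 with all lines as units, 148 without the 4 Hs lines, 0 with the second-highest probe set and 89 with MB157 and MDAMB157 separate. For RXRA (563) it was 314 with the mean of probe sets, 1008 with all lines as units and 81 with the second-highest probe set. For RARB (0) it was 1 without the 4 Hs lines, and for RARG (583) 247 without the 4 Hs lines and 122 without DU4475. Leaving out each of the 50 units in turn gave 0 to 8 genes for PGR (0 without T47D, 8 without EVSAT, and beyond 1.5 times also without CAMA1, KPL1, MDAMB361 or ZR751), 3626 to 4372 for NR3C1, 0 to 8 for NR3C2 (14 of 50 units beyond 1.5 times, 8 without CAL51), 31 to 75 for VDR (beyond 1.5 times without UACC893, MDAMB175VII or MDAMB453), 470 to 813 for RXRA, 0 for RARB and 122 to 714 for RARG (beyond 1.5 times without DU4475 or HS362T).

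With no cluster factor NR3C1 had 5 luminal and 2 epithelial genes called lower and 6 stromal genes called higher, and without the 4 Hs lines 5 stromal genes. With no cluster factor the slopes on NR3C1 of ESR1 and THRB turned to 0.038 and 0.094, and with the second-highest probe set the r of PGR and RXRA in the higher PGR cluster turned to -0.11 and 0 of 27 pairs were called. With the mean of probe sets the median level of NR3C1 was 8.04, the level of VDR 7.59 and the level of RXRA 7.84, and with the second-highest the level of VDR was 4.92, the level of RXRA 6.69 and the level of RARB 3.46. RARG has 1 probe set, so that alternative was not run for it. Of the summary values under alternatives, such as counts of called genes and median levels, 33 moved and 144 did not. Among single slopes and pairs of receptors under alternatives, 2436 were counted as the same. These kept their side of the threshold, and changes of sign with no call in either fit are among them. Another 168 became weaker and 3 became stronger, and 3 reversed with a call in the main or the alternative fit. The cause of each change was not tested. No paired analysis was possible because the lines carry no shared replicate numbers.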

Other observations

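Enzymes that make or remove the ligands of these receptors differed in how many lines had them above the array median. ALDH1A2, which makes retinoic acid, was above the array median in 3 lines, highest in DU4475 at 11.23 against a median of 3.82, while its relative ALDH1A3 was above it in 51 lines, highest in HCC1954 at 12.87. ALDH1A1 was above the array median in 28 lines and highest in CAL51 at 12.98. CYP26A1, which degrades retinoic acid, was above it in 9 lines and highest in HCC1937 at 7.53. CYP24A1, which degrades active vitamin D, was above it in 13 lines and highest in CAL120 at 9.32, the line with the lowest VDR. CYP27B1, which makes active vitamin D, was highest in VP267 at 9.92. HSD11B1, which regenerates cortisol, was above the array median in 12 lines and highest in HS605T at 12.54, the line with the highest NR3C1, and HSD11B2, which inactivates cortisol, was highest in ZR751 at 9.13 and lowest in HS579MG at 3.26. These genes were picked after their values were seen, and no test was made of the matching lines.

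OCUBF and OCUBM, which were kept apart, had profiles that correlated with r = 0.76 across genes, and each was the other's closest line.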
